A study of Homo sapiens with 6 samples.

Results

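The genes described here are 45 listed factors of blood clotting and complement. They are coagulation factors and their inhibitors, many of them secreted by the liver, complement components, and complement regulators of plasma and the cell surface. They were chosen by symbol from a table of 27009 genes, and 35 of the 45 were found there, 20 of them at a level that could be tested. F9, F11, KNG1, C6, C8A, C8B, C9, MASP1, MBL2 and C4BPB are not analysed here. RNA was sequenced from 6 libraries of cells labelled Hep3B, a human liver cancer line, all with a knockout of their endogenous PD-L1 gene (CD274). The 3 vector libraries came from knockout cells with the empty vector. The 3 libraries labelled nPD-L1 came from knockout cells carrying a mutated PD-L1 sequence, driven by the CMV promoter of a lentiviral plasmid, whose protein gathers in the nucleus. Stable cells were kept by drug selection, and whether each was a clone or a pool is not given in the sources used here. The question for these genes was which of them differed between the libraries labelled nPD-L1 and the vector libraries.

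Clotting starts when tissue factor, the protein of F3, meets factor VII of the blood. A chain of serine proteases then makes thrombin from prothrombin, and thrombin cuts fibrinogen into the fibrin of a clot, while antithrombin, protein C with its cofactor protein S, and the TFPI proteins hold the chain back. Complement is a second chain of plasma proteases, in which the C3 and C5 proteins are cut to mark and pierce foreign cells, and CD46, CD55 and CD59 protect the body's own cells from it. Hepatocytes make most of the plasma proteins of both chains, whereas tissue factor, thrombomodulin and the surface regulators are made by many other cells.

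The values are scaled reads, the reads on a gene divided by a size factor of the library. They summed to between 18082164 and 19682128 per library. In the 4 libraries where whole reads were recovered there were 17427519 to 22253295 reads on genes, and 1 read was worth 0.840 to 1.13 scaled reads. Vector replicates 2 and 3 stood farthest apart within a group, with 1190 of 14843 genes more than 2-fold apart, against 510 to 758 genes in the other pairs. The hepatocyte markers were split. ALB, TTR, APOA1, APOA2, APOB, TF and AHSG had group means of at most 1.92 scaled reads, AFP is not analysed here, and of the 13 markers reported 5 could be tested. KRT8 and KRT18, keratins of simple epithelia, were abundant, with 36209 and 34541 scaled reads for KRT8 on average in vector and nPD-L1 and 20691 and 17497 for KRT18. APOH had 217 and 173, SERPINA1 20.6 and 19.1, and HNF4A, which was called higher, 12.2 and 45.5. CD274 had 28.3, 38.4 and 47.8 scaled reads in vector replicates 1, 2 and 3 and 16.8, 19.2 and 30.9 in nPD-L1 replicates 1, 2 and 3, so its transcript was not higher where nPD-L1 was said to be expressed (log2 fold change -0.76, SE 0.34, limma adjusted p = 0.338). Whether the counts of CD274 take in reads of the introduced sequence is not given in the sources used here, so CD274 does not check the labels, and every direction below is that of the labels.

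Among the 20 members tested, F3 was higher in the libraries labelled nPD-L1 and no other member passed the test. Tissue factor transcript rose 4.67-fold, while fibrinogen, the TFPI inhibitors, C3, C5 and the surface regulators all stayed within 2-fold of their vector level by their 95% intervals. The test was limma on log2(value + 1) over 15076 genes, and a gene was called at an adjusted p under 0.05. 1 of 20 members was called higher, where 4.04% of all genes tested were, and 0 of 20 were called lower, where 0.922% of all genes were. edgeR and DESeq2, run on 4 of the libraries, also called 0 members lower. At an unadjusted p under 0.05, 2 members were higher, F3 and F2, against 9.53% of all genes, and 1 was lower, FGA, against 4.71%. The shares are close to the background of the whole table. The median log2 fold change of the 20 members was 0.09, and that of all genes tested was -0.02. The 95% interval of the difference lay within 2-fold in either direction for 16 of the 20 members tested, as it did for 77.9% of all genes tested. F3, F2, SERPIND1 and C4BPA were the exceptions. The groups did not overlap for F3, F2 and F8, all higher, and for F12 and CD55, both lower, which compares with 12% of all genes that did not overlap and were higher and 8.54% that were lower. Of the 15 members too low to test, 3 did not overlap and were higher and 0 were lower, against 3.65% and 3.6% of the 11933 genes not tested, and these are differences of a few reads. A two-sided exact permutation test was run on each of the 20 members tested. This exact test gave p = 0.1 for F3, F2, F8, F12 and CD55, the smallest that 3 against 3 libraries allow. Groups that do not overlap always give that value. For the other members the exact test gave p = 0.3 to 0.8. The labels do not say that the replicates were separate cultures, so the p-values measure the spread between these libraries, which may be technical. As the samples were bulk RNA, a change in the number of cells that express a gene and a change in RNA per cell cannot be told apart.

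**Figure D1:**
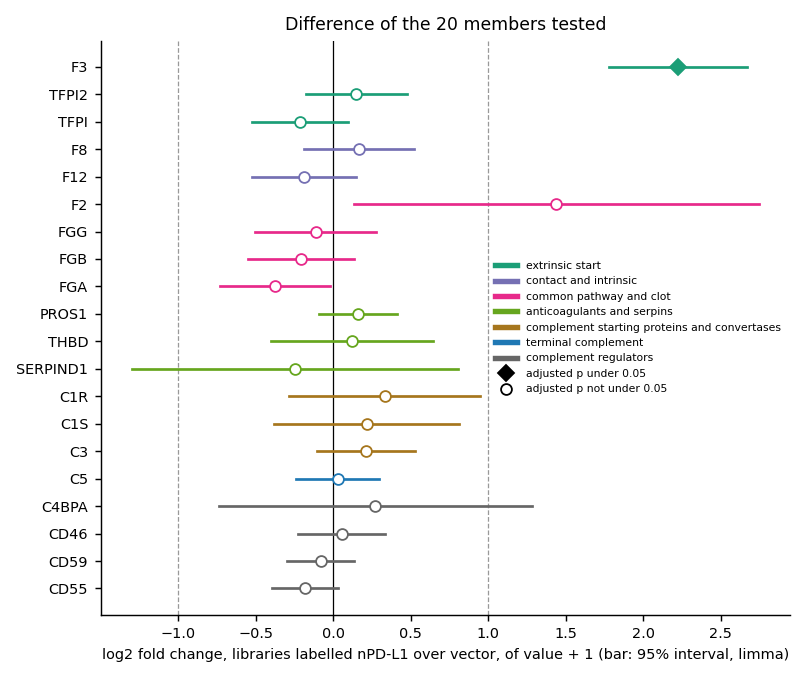
Log2 fold change of the 20 members tested, libraries labelled nPD-L1 over vector, on the log2(value + 1) scale, with bars for the 95% interval of the limma fit and dashed lines at 2-fold. The diamond of F3 lies at 2.22, and the open circles of the other 19 members lie between -0.38 and 1.44.

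Tissue factor is the receptor on the cell surface that binds factor VII and starts clotting. F3 (ENSG00000117525) lies at chr1:94529225-94541800 on the reverse strand of GRCh38, the build of all coordinates given, and no other gene of the table overlaps it. F3 had 27.3, 30.5 and 33.3 scaled reads in vector replicates 1, 2 and 3, and 144, 139 and 152 in nPD-L1 replicates 1, 2 and 3. Every library labelled nPD-L1 stood far above every vector library, and the libraries of each group lay close together. The group means were 30.3 ± 3.005 (SD, n = 3) and 145 ± 7.003 (SD, n = 3). The log2 fold change was 2.22 (SE 0.20, 95% interval 1.78 to 2.67), a 4.67-fold rise (3.42 to 6.36) with a limma adjusted p of 8.1e-05. By size of the rise F3 ranked 95 of the 15076 genes, and by p it ranked 80. Its level per kilobase of gene moved from 10.6 to 50.4 scaled reads. In the vector libraries 15.8% of the genes tested lay at or below it, and in the libraries labelled nPD-L1 40.6% did. F3 was called higher in all 21 other settings tried. Fibroblasts are known to express F3, and of the 6 fibroblast and stellate cell markers of the list, 4 were found and their summed level was 170 to 245 scaled reads per vector library and 586 to 655 per library labelled nPD-L1. This rise was that of COL1A1, a collagen chain (65.3 to 466), whereas LUM had 131 and 137, DCN and PDGFRB reached at most 8.31, and COL1A2 and COL3A1 are not analysed here. The part of such cells in the F3 result was not tested.

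The sequence before the F3 start is shown because F3 was the member that moved. RefSeq (GRCh38.p14) gave promoters for 37 of the 45 members, each from 250 bases before to 50 bases after a start. Only the bases before the gene's first base in the table are printed, 5′ to 3′, with motif matches in capitals. The motifs searched on both strands were TTGCNNAA (C/EBP), TTCNNNGAA (STAT), TGACTCA or TGAGTCA (AP-1) and CAGACA (SMAD).
F3 promoter, chr1:94541801-94542009, reverse strand: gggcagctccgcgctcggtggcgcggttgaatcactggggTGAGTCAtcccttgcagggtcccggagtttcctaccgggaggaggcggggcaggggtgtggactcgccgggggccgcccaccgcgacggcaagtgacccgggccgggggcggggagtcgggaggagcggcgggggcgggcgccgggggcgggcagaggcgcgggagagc
The capitals mark the AP-1 letters at -210 to -204 from the start. They were the only motif match in the F3 window, and 4.95% of all 35116 promoters hold AP-1 letters. Among the members, only F3 and CD59 held them. A match describes the letters and is no evidence of binding.

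The inhibitors of the same step were not called in this test. TFPI (ENSG00000003436, chr2:187464230-187565760) encodes the inhibitor that blocks the complex of tissue factor and factor VII. In the order of replicates 1, 2 and 3, as for all values given per library, it had 2179, 3019 and 2473 scaled reads per vector library and 1869, 2298 and 2424 per library labelled nPD-L1. The groups overlapped, and the log2 fold change was -0.21 (95% interval -0.53 to 0.10, limma adjusted p = 0.571). It ranged from -0.36 to -0.09 in the other settings, and was -0.35 with the trend on gene length removed (limma adjusted p = 0.279). With the replicate number also fitted as a block it was again -0.35, and TFPI was called lower (limma adjusted p = 0.0427). TFPI2 (ENSG00000105825, chr7:93885396-93890991), a related inhibitor held in the extracellular matrix, had 1471, 1351 and 1769 scaled reads per vector library and 2061, 1428 and 1633 per library labelled nPD-L1. Its groups overlapped as well, with a log2 fold change of 0.15 (95% interval -0.18 to 0.48, limma adjusted p = 0.715). The number of TFPI reads per F3 read, not divided by gene length, was 84.4 ± 12.9 (SD, n = 3) in the vector libraries and 15.2 ± 1.90 in those labelled nPD-L1. For TFPI2 it was 50.5 ± 5.37 and 11.8 ± 2.22. Both ratios were lower in every library labelled nPD-L1 than in any vector library, and they carry the F3 values. F7, the circulating partner of tissue factor, was not tested, with 0 to 3.12 scaled reads per library. The endothelial markers, which bear on TFPI and thrombomodulin, were nearly silent: 4 of 7 were found, none could be tested, and their summed level was 10.1 to 10.4 scaled reads per vector library and 7.72 to 15.2 in those labelled nPD-L1. CDH5, KDR and ERG are not analysed here.

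**Figure D2:**
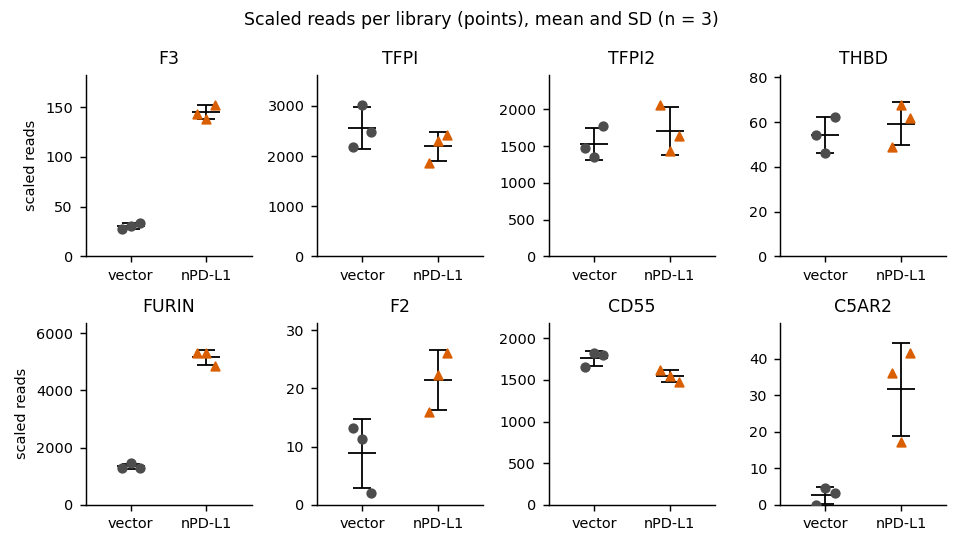
Scaled reads in each library (points) with the group mean and SD (bars, n = 3) for tissue factor, its inhibitors and genes named in the text, each panel on a linear axis from 0. F3, FURIN and C5AR2 are the panels in which the groups stand far apart, F2 and CD55 do not overlap but did not pass the test, and TFPI, TFPI2 and THBD overlap.

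In the contact and intrinsic arm, F12 and F8 were the 2 of 6 members that could be tested, and neither was called. F12 (ENSG00000131187, chr5:177402140-177409576) encodes factor XII, which starts clotting on charged surfaces. It had 193, 204 and 194 scaled reads per vector library and 189.9, 182 and 149.5 in those labelled nPD-L1. The libraries labelled nPD-L1 all lay below the vector libraries, and the first of them only just did (log2 fold change -0.19, 95% interval -0.53 to 0.15, limma adjusted p = 0.651). F8 (ENSG00000185010, chrX:154835788-155026940) encodes factor VIII, the cofactor missing in haemophilia A. It had 111, 131 and 125 scaled reads per vector library and 134, 143 and 134 per library labelled nPD-L1. The groups did not overlap, but their means differed by less than the range of the vector libraries (log2 fold change 0.17, 95% interval -0.19 to 0.52, limma adjusted p = 0.710). Both genes share ground with more abundant genes on the opposite strand, F12 with GRK6 (1372 and 1178 scaled reads on average in vector and nPD-L1) and F8 with F8A1 (521 and 590.3) and FUNDC2 (1166 and 1071). Whether reads were counted by strand is not given in the sources used here, so the F12 and F8 values are uncertain. KLKB1, the gene of plasma prekallikrein, had 0 scaled reads in each vector library and at most 0.965 in the others.

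In the common pathway, neither prothrombin nor any fibrinogen chain passed the test. F2 (ENSG00000180210, chr11:46719180-46739506) encodes prothrombin, which becomes the protease thrombin. It had 13.1, 11.3 and 2.08 scaled reads per vector library and 15.97, 22.3 and 26.05 in those labelled nPD-L1. The groups did not overlap, yet the vector libraries spanned a 6.31-fold range, with 2 reads in vector replicate 3. The log2 fold change was 1.44 (SE 0.59, 95% interval 0.13 to 2.75) with a limma unadjusted p of 0.0338 and an adjusted p of 0.284, and it was between 0.74 and 1.84 in the other settings tried. F10, F5 and F13B, the genes of factor X, factor V and the factor XIII carrier subunit, had at most 10.6 scaled reads in any library and were not tested.

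FGA, FGB and FGG encode the 3 chains of fibrinogen and lie beside each other on chromosome 4. FGA (ENSG00000171560, chr4:154583126-154590766) had 2867, 3286 and 2058 scaled reads per vector library and 1861, 2263 and 2107 per library labelled nPD-L1. Vector replicates 1 and 2 were the highest and vector replicate 3 lay among the libraries labelled nPD-L1, so the groups overlapped. The log2 fold change was -0.38 (SE 0.16, 95% interval -0.73 to -0.02), with a limma unadjusted p of 0.0395 and an adjusted p of 0.311. Without vector replicate 3 it was -0.57 and FGA was called lower (limma adjusted p = 0.0166), and without vector replicate 2 it was -0.23 and not called (limma adjusted p = 0.427). FGB (ENSG00000171564, chr4:154562956-154571086) had 1217, 1540.5 and 962 scaled reads per vector library and 995, 1057 and 1120.0 in those labelled nPD-L1. Its groups overlapped, with a log2 fold change of -0.21 (95% interval -0.55 to 0.14, limma adjusted p = 0.628), which was -0.04 without vector replicate 2 and -0.37 without vector replicate 3. FGG (ENSG00000171557, chr4:154604134-154612967) had 783, 1129 and 658 scaled reads per vector library and 749.6, 849 and 723 in those labelled nPD-L1. It overlapped too, with a log2 fold change of -0.11 (95% interval -0.50 to 0.28, limma adjusted p = 0.822), and its sign changed without vector replicate 2 (0.10). All 3 chains were highest in vector replicate 2, and among the vector libraries all 3 were lowest in vector replicate 3. Over the 6 libraries there were 1.87 to 2.35 FGA reads per FGB read, 1.25 to 1.55 FGB reads per FGG read and 2.48 to 3.66 FGA reads per FGG read. The last ratio was the widest, at 3.23 ± 0.386 (SD, n = 3) in the vector libraries and 2.69 ± 0.215 in those labelled nPD-L1, and its groups overlapped. Together the 3 chains took 0.0193% to 0.0303% of a library. In the same libraries ALB, APOA1 and APOB were near 0, and the liver-secreted members F7, F10, SERPINC1, PROC and CFI had at most 5.06 scaled reads.

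**Figure D3:**
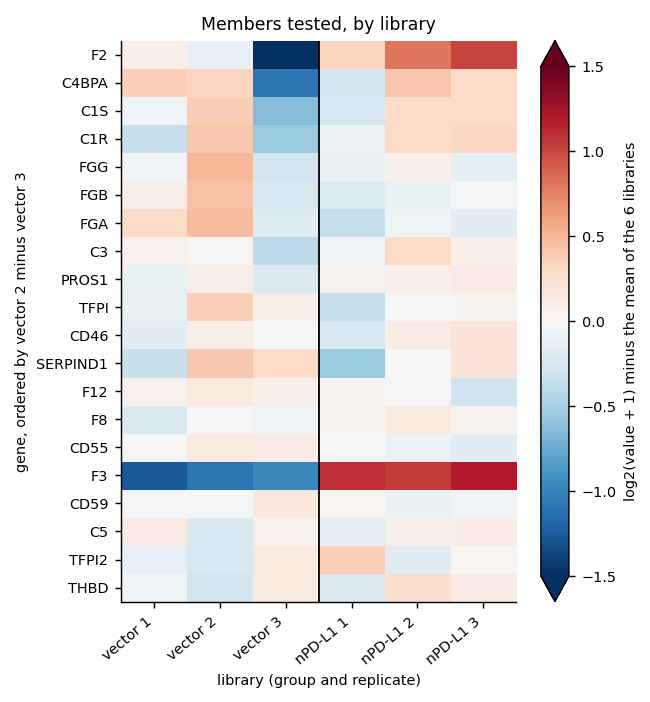
The 20 members tested (rows, ordered by vector replicate 2 minus vector replicate 3) in the 6 libraries (columns), coloured by log2(value + 1) minus the mean of the 6 libraries, with colours ending at 1.5 either way. F3 is low in the 3 vector columns and high in the 3 columns labelled nPD-L1, whereas the upper rows, F2 to FGA, differ most between vector replicates 2 and 3.

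The pattern of vector replicates 2 and 3 was not particular to fibrinogen. Vector replicate 2 was the highest of the vector libraries for 12 of the 20 members and for 40.9% of all genes tested. Vector replicate 3 was the lowest for 9 of the 20 members and for 35.4% of all genes, and both held for 6 members and for 26.9% of all genes. These members were FGA, FGB, FGG, C1R, C1S and PROS1.

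The FGA and FGB promoters are shown because the fibrinogen chains are expressed together in hepatocytes and both windows held C/EBP letters. No FGG window held C/EBP letters. The only motif match of FGG was SMAD letters at 40 to 45 from the start.
FGA promoter, chr4:154590767-154590992, reverse strand: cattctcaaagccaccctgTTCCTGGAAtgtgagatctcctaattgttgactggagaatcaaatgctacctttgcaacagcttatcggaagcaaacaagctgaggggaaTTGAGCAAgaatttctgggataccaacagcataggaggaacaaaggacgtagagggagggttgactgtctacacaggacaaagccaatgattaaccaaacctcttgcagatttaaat
FGB promoter, chr4:154562730-154562955, forward strand: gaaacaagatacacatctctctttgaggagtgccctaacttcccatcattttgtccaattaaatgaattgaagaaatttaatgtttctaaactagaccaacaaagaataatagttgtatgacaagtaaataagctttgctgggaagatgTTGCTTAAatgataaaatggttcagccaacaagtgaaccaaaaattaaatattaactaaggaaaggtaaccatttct
In FGA the capitals mark a STAT match at -231 to -223 and a C/EBP match at -141 to -134. In FGB they mark a C/EBP match at -101 to -94, counted from the first of its RefSeq starts. A member can have several promoters, and the members had 51. The C/EBP letters were found in 12 of these 51 and in 10.5% of all promoters, the STAT letters in 13 of 51 and 7.66%, and the SMAD letters in 8 of 51 and 16.9%. Windows of the same member can overlap, as those of FGB do, so a site can be counted more than once. Of the 37 members with a promoter, 9 held C/EBP letters, 11 held STAT letters and 8 held SMAD letters.

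Of the anticoagulants and serpins, PROS1, THBD and SERPIND1 were tested and none was called. PROS1 encodes protein S, the cofactor of activated protein C, and had 625 ± 67.8 (SD, n = 3) scaled reads per vector library and 697 ± 18.1 in those labelled nPD-L1 (log2 fold change 0.16, 95% interval -0.09 to 0.41, limma adjusted p = 0.599). THBD encodes thrombomodulin, the surface receptor that turns thrombin toward protein C. It had 54.4 ± 8.03 and 59.4 ± 9.72 (log2 fold change 0.12, 95% interval -0.40 to 0.64, limma adjusted p = 0.858), so tissue factor rose while this surface anticoagulant did not pass the test in either direction. SERPIND1, the gene of heparin cofactor II, had only 10.3 ± 2.85 and 8.53 ± 2.42 scaled reads and lies over PI4KA on the opposite strand, a gene near 916 and 933. Antithrombin (SERPINC1), protein C (PROC) and protein Z (PROZ) had at most 8.31 scaled reads in any library and were not tested.

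In the starting and convertase part of complement, C3 was well expressed and the rest was low. C3 (ENSG00000125730, chr19:6677704-6730562) encodes the protein on which all routes of complement meet. It had 1052, 1021 and 766 scaled reads per vector library and 976, 1236 and 1064 per library labelled nPD-L1. The groups overlapped, with vector replicate 3 lowest of all (log2 fold change 0.21, 95% interval -0.10 to 0.53, limma adjusted p = 0.580). C1R and C1S encode the proteases of the first component. C1R had 60.0 ± 22.6 scaled reads per vector library and 73.2 ± 10.97 in those labelled nPD-L1, and C1S had 106 ± 36.3 and 120.1 ± 24.7 (SD, n = 3 each). Neither was called (limma adjusted p = 0.662 and 0.771), and both were highest in vector replicate 2 and lowest in vector replicate 3. C1R overlaps C1RL, and C1S overlaps LPCAT3 and EMG1, all of them more abundant. SERPING1, the gene of the C1 inhibitor, C2, CFB, C4A and C4B had at most 8.07 scaled reads in any library and were not tested. C4A and C4B are nearly identical copies, so reads between them are uncertain.

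Of the terminal components that build the membrane pore, C5 alone was tested. C5 (ENSG00000106804, chr9:120952335-121050276) had 1953, 1526 and 1872 scaled reads per vector library and 1624, 1894 and 1929 per library labelled nPD-L1. The groups overlapped, and the log2 fold change was 0.03 (95% interval -0.24 to 0.30, limma adjusted p = 0.936). Its sign changed in 5 of 21 other settings, none of which called it. C8G, the light chain of component 8 that carries the lipocalin fold, ranged from 1.13 to 15.6 scaled reads within the vector group and was not tested.

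The surface regulators were among the most abundant members, and none was called. CD46 (ENSG00000117335, chr1:207752057-207795513) encodes the membrane cofactor that helps factor I cut C3b. It had 3325, 3974 and 3623 scaled reads per vector library and 3149, 4024 and 4228 per library labelled nPD-L1, which overlap (log2 fold change 0.05, 95% interval -0.23 to 0.34, limma adjusted p = 0.884, with a change of sign in 7 of 21 other settings, never called). CD55 (ENSG00000196352, chr1:207321376-207386804) encodes decay-accelerating factor, which takes C3 convertases apart. It had 1651, 1822 and 1802 scaled reads per vector library and 1619, 1552 and 1477 per library labelled nPD-L1. All 3 libraries labelled nPD-L1 lay below all vector libraries, with means of 1758 ± 93.2 and 1549 ± 71.3 (SD, n = 3), and the log2 fold change was -0.18 (SE 0.10, 95% interval -0.39 to 0.03, limma adjusted p = 0.450). CD59 (ENSG00000085063, chr11:33703010-33736491) encodes the protein that blocks the assembly of the pore. It had 2422, 2429 and 2764 scaled reads per vector library and 2504, 2300.0 and 2386 in those labelled nPD-L1, which overlap (log2 fold change -0.08, 95% interval -0.30 to 0.14, limma adjusted p = 0.761). C4BPA, the main chain of the C4b-binding protein of plasma, had 18.8 ± 9.04 and 21.2 ± 5.36 scaled reads and was not called (limma adjusted p = 0.835), and CFI, the gene of factor I, was at 0 in 5 of 6 libraries.

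Compared per kilobase of gene, the level over the 6 libraries was highest for FGA (608 scaled reads) and TFPI2 (604). CD46 (427) and FGB (424) came next, then CD55 (279.9), C5 (275), CD59 (238), FGG (226), TFPI (203) and C3 (122). Neighbours in this order were not tested against each other. F3, at 30.5, stood below PROS1 (121) and F12 (67.0). The 35 members together took 0.101% to 0.114% of a library, and the groups overlapped.

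**Figure D4:**
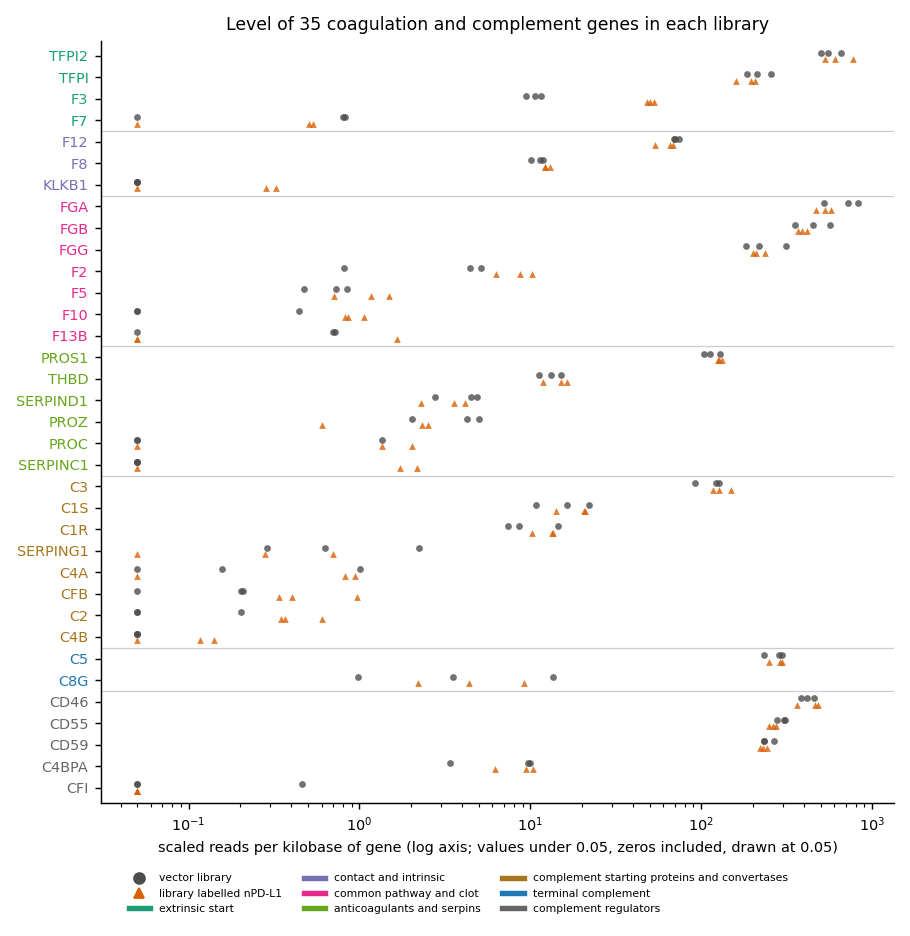
Scaled reads per kilobase of gene (log axis) in each of the 6 libraries for the 35 members found, grouped by role, with values under 0.05 drawn at 0.05. The triangles (libraries labelled nPD-L1) of F3 stand well to the right of its circles (vector), at means of 50.4 and 10.6, whereas the F2 groups (8.40 and 3.46) do not overlap but lie close together in replicate 1 of each.

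The other genes of these pathways were taken from a list, of which 71 are reported, 53 were found and 40 tested. 2 of these were called higher, FURIN and C5AR2, and 0 were called lower by limma, where 4.04% and 0.922% of all genes were. At an unadjusted p under 0.05, 4 of the 40 were higher and 1 was lower, against 9.53% and 4.71% of all genes. C5AR2 entered the test only through the libraries in which it is high, so its call adds nothing to the count. In vitamin K handling and secretion 1 of 9 tested was called, and in the rest of complement 1 of 15. FURIN encodes a protease that trims propeptides in the secretory route. It had 1273, 1457 and 1286 scaled reads per vector library and 5301, 5295 and 4864 per library labelled nPD-L1 (log2 fold change 1.95, SE 0.10, limma adjusted p = 1.2e-06). Every library labelled nPD-L1 lay above all vector libraries by more than the spread within either group.

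C5AR2 encodes an alternative receptor of the C5a fragment. It had 0, 4.52 and 3.12 scaled reads per vector library and 36.1, 17.2 and 41.5 in those labelled nPD-L1, few reads in either group, with a log2 fold change of 3.43 (SE 0.69, limma adjusted p = 0.0146). It was not called with a pseudocount of 0.1 (log2 fold change 4.70, limma adjusted p = 0.0712), without nPD-L1 replicate 1 (3.30, adjusted p = 0.109) or without nPD-L1 replicate 3 (3.20, adjusted p = 0.119). With a pseudocount of 10 the log2 fold change was 1.69 and C5AR2 was called (limma adjusted p = 0.0059). Leukocytes express this receptor, and of the 7 leukocyte and macrophage markers 5 were found, with a summed level of 6.24 to 19.2 scaled reads per vector library and 14.2 to 28.6 in those labelled nPD-L1. CSF1R, a receptor of macrophages, had 2.02, 1.13 and 1.04 scaled reads with the vector and 10.9, 3.03 and 12.5 under the nPD-L1 label, and so moved with C5AR2 without overlap. PTPRC, which marks all leukocytes, was at 0 in 5 of 6 libraries, and the part of such cells in the result was not tested. The receptor C5AR1, the urokinase receptor gene PLAUR and the protein C receptor gene PROCR were not called. PLAUR had 719 ± 82.4 and 959.5 ± 109 scaled reads (SD, n = 3) with no overlap between groups and a limma adjusted p of 0.105. C5AR1 and PROCR did not overlap either, and both were lower in the libraries labelled nPD-L1. Of the 40 other pathway genes tested, 5 did not overlap and were higher, against 12% of all genes. Another 5 did not overlap and were lower, against 8.54%.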

How the data were processed

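Total RNA had been isolated with TRIzol Plus and made into libraries with the NEBNext Ultra RNA kit, 3 per group, and each library was assigned by its title. Per the labels, CASAVA and HISAT2 2.0.5 with hg38 were used. The counting tool and its strand setting are not given in the sources used here. The deposited signal of each library is the reads on a gene divided by a size factor, although the table calls it raw. Whole reads were recovered in 4 libraries (100% of values whole within 0.1 of a read). In vector replicate 1 and nPD-L1 replicate 2 the value of 1 read was too close to 1 for this to be accepted. The authors' deposited group means, log2 fold change, p-value and adjusted p-value were not used.

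A gene entered the test when 3 or more libraries had a value of 10 or more. limma (3.58.1, R 4.3.3) was fitted on log2(value + 1), with eBayes trend and robust moderation and Benjamini-Hochberg adjustment over all 15076 genes, so fold changes of low genes are understated. The fit was tested on simulated data. edgeR (4.0.16) and DESeq2 (1.42.0) were run on the recovered reads of the 4 libraries. Gene coordinates of all 35 members found equal those of GENCODE 29 (GRCh38). The order of levels between genes was taken per kilobase of the table's gene length. Ratios of reads between genes and the levels of overlapping genes were not divided by length.

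The members and lists were chosen with earlier results of these data known. Per-library values are given for members that were called, did not overlap between groups, were among the 10 highest per kilobase, or belong to a complex with such a member. Other members are given by means or ranges, and other pathway genes if called. PLAUR was added after its values were seen. Some genes of the lists and a motif are not reported here, whatever their result, and the counts of the lists leave them out. Alternatives were other scalings, filters, pseudocounts and thresholds, moderation without robust fitting, protein-coding genes only, a gene length trend (loess, span 0.3), the replicate number as a block, and each library left out.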

Additional observations from a re-analysis of the deposited data

How the results depend on the processing

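F3 was called higher in 21 of 21 other settings, with a log2 fold change of 1.94 to 2.29 and a highest adjusted p of 0.0038. Leaving out each library in turn gave 1 member called higher each time, 0 to 1 called lower, a median log2 fold change of the members of 0.01 to 0.14, 350 to 793 of all genes called higher and 77 to 244 called lower. The member called lower was FGA without vector replicate 3, and the cause was not tested. Against the reported 609 higher and 139 lower, the calls moved by over 1.5 times without nPD-L1 replicate 1 (356 and 84), 2 (403 and 86) or 3 (350 and 77), and the lower calls without vector replicate 1 (78) or 2 (244). edgeR on 4 libraries gave 248 higher and 52 lower, DESeq2 329 and 85, and limma on the same 4, added after the data were seen, 241 and 52. A 2-fold threshold beside the adjusted p gave 306 and 68. An unadjusted p under 0.05 gave 1436 and 710 of all genes, and 2 and 1 members.

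The replicate numbers were not taken as pairs. Deviations of same-numbered libraries correlated at -0.01, 0.23 and 0.13. Vector replicates 2 and 3 correlated best with the nPD-L1 library of the same number, but vector replicate 1 with nPD-L1 replicate 3 (0.07). These values do not settle whether the libraries were paired. With the replicate block 927 of all genes were called higher and 258 lower, and 1 member higher and 0 lower. The replicate block with the gene length trend removed gave 700 and 290, and 1 member lower, TFPI (log2 fold change -0.35, limma adjusted p = 0.0427). The cause was not tested. The other scalings moved the median of all genes by less than 0.1 on the log2 scale. Few reads limit F2, SERPIND1, C4BPA and C5AR2.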

Other observations

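F10, C2 and CFB were too low to test, yet each was higher in all 3 libraries labelled nPD-L1 than in any vector library. This held for 3 of the 15 members not tested, with 0 lower, and for 3.65% of all 11933 genes not tested, with 3.6% lower. F10 had 0, 0 and 1.04 scaled reads in vector replicates 1, 2 and 3 and 2.52, 2.02 and 1.93 in nPD-L1 replicates 1, 2 and 3. C2 had 0, 1.13 and 0 against 3.36, 2.02 and 1.93, and CFB had 1.01, 0 and 1.04 against 1.68, 2.02 and 4.82. With 1 read worth 0.840 to 1.13 scaled reads, these are differences of a few reads, and C2 and CFB overlap each other. They were looked at after their values were seen.

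HNF4A, a hepatocyte transcription factor known to act on many genes of clotting factors, had 19.2, 11.3 and 6.24 scaled reads per vector library and 51.3, 51.6 and 33.8 in those labelled nPD-L1 (log2 fold change 1.91, SE 0.42, limma adjusted p = 0.0232). The groups did not overlap. HNF4A had few reads and entered the test only through the libraries labelled nPD-L1. Of the 5 hepatocyte markers tested, the other 4 were not called. HNF4A was not followed in the other settings, and its part in the levels of the members was not tested.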
